A study of Rattus norvegicus with 8 samples.

Results

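Tumours given rapamycin alone were compared with tumours given vehicle. The groups compared hold 4 of the 8 tumours in the series, the 2 labelled control and the 2 labelled rapamycin, chosen by these titles. The other 4 tumours entered the test as well, since the spread between tumours was estimated from all 8. This assumes the same spread in every group. All 8 grew from ELT3-V3 cells injected subcutaneously into NOD-scid females, 6 weeks old at inoculation, and treatment began when a tumour measured 150 to 200 mm3. NOD-scid mice lack mature T and B cells but still supply stroma, vessels and myeloid cells. The vehicle, carboxymethylcellulose at 0.2% with Tween-80 at 0.25%, is recorded for all 8 tumours, and the control tumours received no drug with it. The rapamycin tumours received rapamycin at 0.25 mg/kg per day, and the labels do not give the length of dosing. The other 4 tumours received rapamycin with clorgyline (10 mg/kg per day, 2 tumours) or with rasagiline (1 mg/kg per day, 2 tumours). The rapamycin dose in these combinations is not recorded. ELT3-V3 is a single cell line, and the labels do not say whether each tumour came from a mouse of its own, so each p-value reflects only how far these particular tumours vary, which may be partly technical.

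ELT3 cells were derived from a uterine leiomyoma of the Eker rat and have lost tuberin, the product of Tsc2. Tuberin and hamartin together hold back the small GTPase Rheb, which activates the kinase complex mTORC1. Cells without tuberin therefore run mTORC1 continuously, as do the smooth muscle-like cells of lymphangioleiomyomatosis (LAM). Rapamycin binds the protein FKBP12, and the pair blocks part of the activity of mTORC1, which otherwise drives protein, lipid and nucleotide synthesis and holds back autophagy and lysosome formation.

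The deposited values are transcript abundances in TPM, in which reads are divided by gene length and each library is scaled to the same sum. The table identifies genes by Ensembl ID alone, and 0 of its 23918 IDs matched the 47357 genes of the reference table, so no gene symbol could be given. The targets of mTORC1, the markers of leiomyoma cells and the markers of host cell types were therefore not checked. The share of RNA from mouse host cells was not analysed here. For a gene in whole tumours, fewer cells of a type and less RNA per cell cannot be told apart. Across the 4 tumours between 12317 and 12923 genes reached 1 TPM, and between 32.0% and 34.7% of all TPM lay in the top 100 genes of a library. Rapamycin tumour 2 had the fewest genes at 1 TPM and rapamycin tumour 1 the most. Sequencing depth is not kept by TPM and was unknown.

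Of the 23918 genes, 12832 reached 1 TPM in at least 2 of the 4 tumours and were tested. A gene was called where its Benjamini-Hochberg adjusted p from limma was below 0.05. By this rule 33 genes rose in the rapamycin tumours and 56 fell, which is 0.257% and 0.436% of the genes tested (0.694% in all). After each library was shifted to a common median, 37 rose and 107 fell. The counts were much smaller under other choices, with 2 genes that rose and 2 that fell when only the 4 control and rapamycin tumours were fitted, 3 and 1 with array weights, 3 and 5 with no filter on low values, and 0 without either control. At a looser threshold, whether falls exceeded rises depended on the scaling. At an unadjusted limma p below 0.05 there were 1568 genes higher and 953 lower as deposited, 1339 and 1271 after quantile normalization, and 1206 and 1448 after the median shift. The 33 had a median log2 difference of 1.93 and the 56 one of -2.09, against 0.0806 over all genes tested. Log2 differences are on the log2(TPM + 1) scale, so changes of weakly expressed genes come out too small. The smallest difference called was 0.936 in size, and the largest were 4.25 and -3.92.

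**Figure D1:**
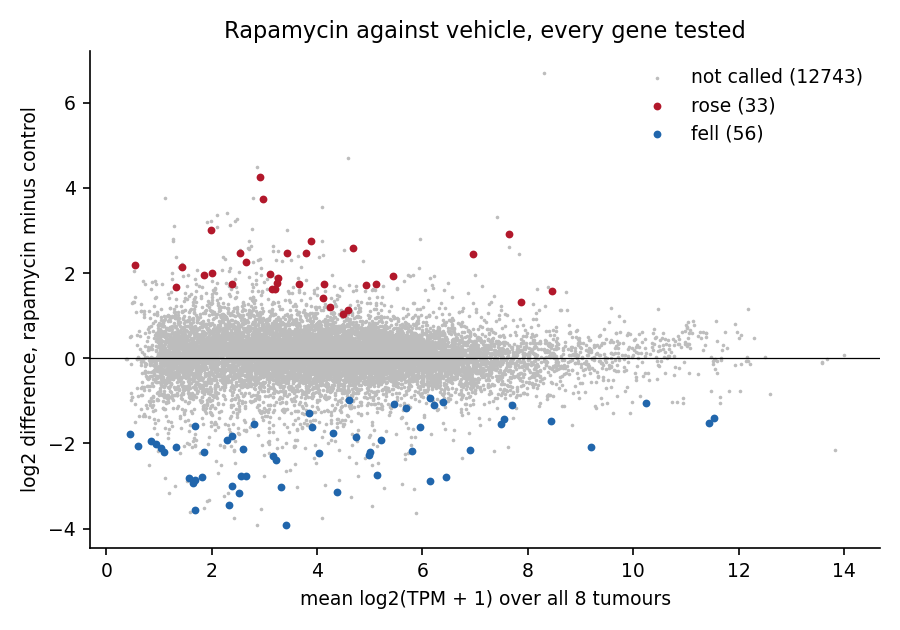
Log2 difference between rapamycin and control tumours (vertical axis) against the mean log2(TPM + 1) over all 8 tumours (horizontal axis), with 1 point for each of the 12832 genes tested. The 33 genes that rose are red and the 56 that fell are blue; many grey genes with differences as large were not called.

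The genes that rose started low. Their median level was 3.50 TPM in controls and 19.0 TPM after rapamycin, and 8 of the 33 averaged under 1 TPM in controls. The genes that fell started higher, with a median of 30.6 TPM in controls and 8.56 TPM after rapamycin. Of these 56, 16 averaged at least 100 TPM in controls, and 17 averaged under 1 TPM after rapamycin. The gene sets were selected on these same values, so the levels are a description. Together the genes that fell took up 1.85% and 1.74% of all TPM in controls 1 and 2, and 0.655% and 0.598% in rapamycin tumours 1 and 2. Those that rose took up 0.0529% and 0.0548% in the controls, and 0.182% and 0.253% in the rapamycin tumours. By mean level over all 8 tumours, the share of genes called was 0.765% below 5 TPM, 0.763% from 5 to 20 TPM, 0.498% from 20 to 100 TPM and 0.949% at 100 TPM and over. At 100 TPM and over, 4 genes rose and 10 fell.

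The 2 genes with the largest rise and the 2 with the largest fall are described by ID. They are the extremes of 30 genes that rose and 48 that fell, each averaging 5 TPM or more in one group and showing no overlap between groups. ENSRNOG00000052713 was listed at 0 in both controls, at 16.3 TPM in rapamycin tumour 1 and at 20.03 TPM in rapamycin tumour 2. Its log2 difference was 4.25 (SE 0.254; 95% interval 3.66 to 4.85; limma adjusted p = 0.00242). The rapamycin tumours were both far above the controls and close to each other. ENSRNOG00000000875 stood at 0.801 and 0.923 TPM in controls 1 and 2, and at 22.4 and 25.4 TPM in rapamycin tumours 1 and 2. The control mean was 0.862 ± 0.0857 TPM and the rapamycin mean 23.9 ± 2.07 TPM (SD, n = 2 each), a 27.7-fold rise (log2 difference 3.74, SE 0.222; limma adjusted p = 0.00242). Here too the groups did not overlap.

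ENSRNOG00000049096 stood at 23.2 and 33.8 TPM in controls 1 and 2, and at 0.506 and 1.43 TPM in rapamycin tumours 1 and 2. Its mean fell from 28.5 ± 7.46 to 0.970 ± 0.655 TPM (SD, n = 2 each), which is 29.4-fold lower (log2 difference -3.92, SE 0.546; limma adjusted p = 0.0398). Rapamycin tumour 1 was the lower of the pair, and both lay far below the controls. ENSRNOG00000048953 stood at 24.6 and 13.0 TPM in controls 1 and 2, and at 0.714 and 0.486 TPM in rapamycin tumours 1 and 2. Its mean fell from 18.8 ± 8.18 to 0.600 ± 0.161 TPM (SD, n = 2 each), which is 31.3-fold lower (log2 difference -3.57, SE 0.414; limma adjusted p = 0.0307). For this gene the controls differed from each other more, in TPM, than the rapamycin tumours did.

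**Figure D2:**
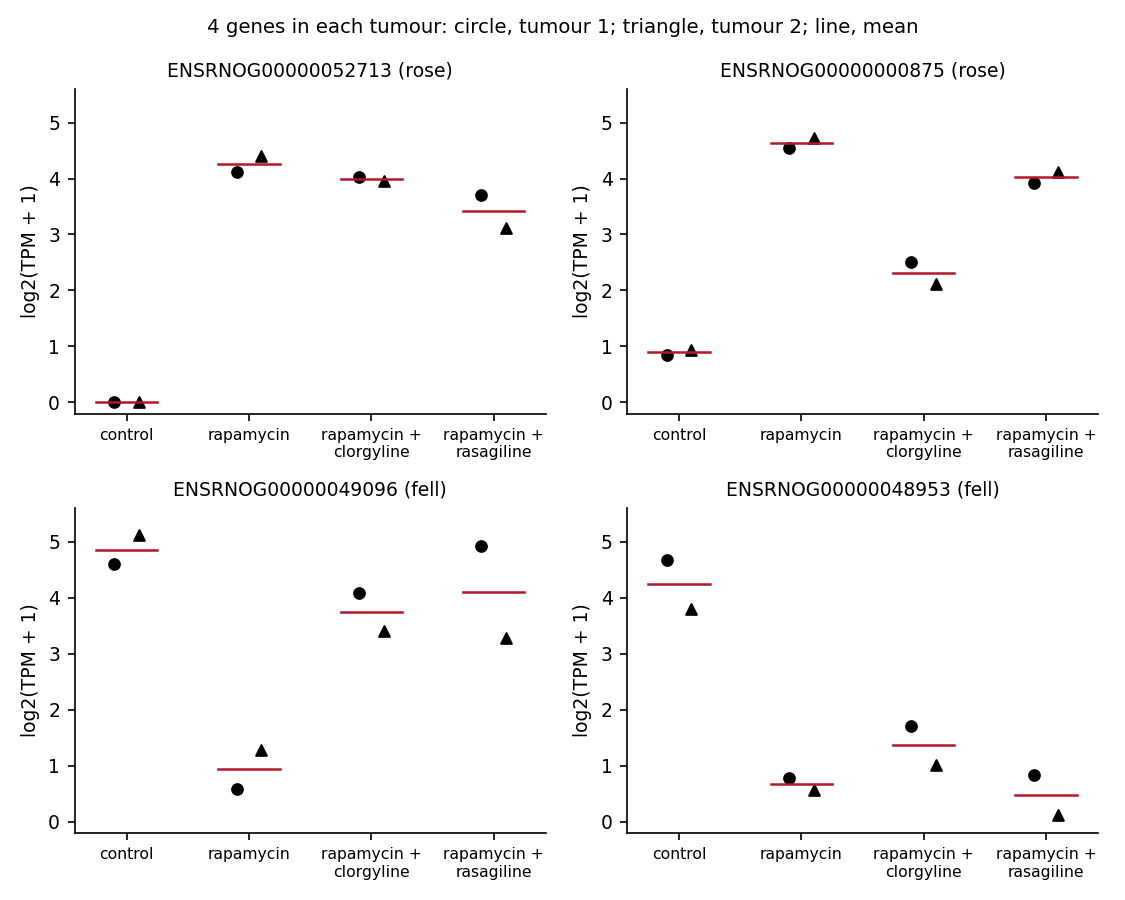
Log2(TPM + 1) of the 4 described genes in each of the 8 tumours, by group; circles are tumour 1, triangles tumour 2 and red lines the mean of the pair. In every panel both rapamycin tumours lie on the same side of both controls.

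Some of these calls depended on the fit. With only the 4 control and rapamycin tumours fitted, ENSRNOG00000049096 and ENSRNOG00000048953 had limma adjusted p-values of 0.0763 and 0.103, while both genes that rose stayed called (limma adjusted p = 0.0452 for each). Without rapamycin tumour 2, the limma adjusted p was 0.0545 for ENSRNOG00000049096 and 0.0507 for ENSRNOG00000048953. Without either clorgyline combination tumour it was 0.082 and 0.0815 for ENSRNOG00000049096, and 0.0615 and 0.062 for ENSRNOG00000048953. Without control 1 or control 2 none of the 4 genes was called, and their limma adjusted p-values ranged from 0.0736 to 0.248.

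The same 4 genes were read in the tumours that received rapamycin with a second drug. These comparisons share the controls or the rapamycin tumours with the one above. The genes were chosen for extreme values in the same rapamycin tumours, which by itself favours less extreme values elsewhere, so the levels and intervals that follow are a description. ENSRNOG00000052713 stood at 15.4 and 14.5 TPM with clorgyline and at 12.1 and 7.70 TPM with rasagiline, all below both rapamycin tumours. ENSRNOG00000048953 stood at 2.27 and 1.03 TPM with clorgyline and at 0.790 and 0.0834 TPM with rasagiline. In both genes all 4 combination tumours lay on the rapamycin side of the controls. For ENSRNOG00000000875 too all 4 lay on the rapamycin side of the controls, again below both rapamycin tumours. It stood at 4.67 and 3.36 TPM with clorgyline and at 14.2 and 16.3 TPM with rasagiline. Its log2 difference from rapamycin alone was -2.32 with clorgyline (95% interval -2.84 to -1.80; limma adjusted p = 0.101) and -0.62 with rasagiline (95% interval -1.14 to -0.10; limma adjusted p = 0.833). For ENSRNOG00000052713 it was -0.26 with clorgyline (95% interval -0.85 to 0.34; limma adjusted p = 0.759) and -0.84 with rasagiline (95% interval -1.43 to -0.24; limma adjusted p = 0.629). None of the 4 differences passed the test over all genes.

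ENSRNOG00000049096 stood at 15.9 and 9.57 TPM with clorgyline and at 29.6 and 8.71 TPM with rasagiline. All 4 combination tumours were above both rapamycin tumours, and rasagiline combination tumour 1 lay between the controls. The log2 difference from rapamycin alone was 2.81 with clorgyline (95% interval 1.53 to 4.08; limma adjusted p = 0.387) and 3.17 with rasagiline (95% interval 1.89 to 4.45; limma adjusted p = 0.302), so neither passed the test over all genes.

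The 2 rapamycin tumours differed from each other more than any other pair of the same group. Their mean variance over the genes tested was 0.265 (log2 scale), against 0.0879 for the controls, 0.123 for the clorgyline combination and 0.112 for the rasagiline combination. The residual variance shared by all groups, which the main test used, averaged 0.147, below that of the rapamycin pair. With only the control and rapamycin tumours fitted it averaged 0.176. The standard errors, intervals and calls of the main test may therefore understate the spread in this comparison. On the log2(TPM + 1) scale, 1575 genes (12.3%) were at least 2-fold apart between the rapamycin tumours, against 363 (2.83%) between the controls. The 1575 became 683 at a pseudocount of 5 TPM and 1034 among genes that reached 5 TPM. Of these 1575, 1150 were lower in rapamycin tumour 2 and 425 were higher. After a shift to a common median the counts were 891 lower and 565 higher, and after quantile normalization 780 lower and 591 higher. Rapamycin tumour 2 was thus lower more often under all 3 scalings, by a margin that depended on the scaling.

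**Figure D3:**
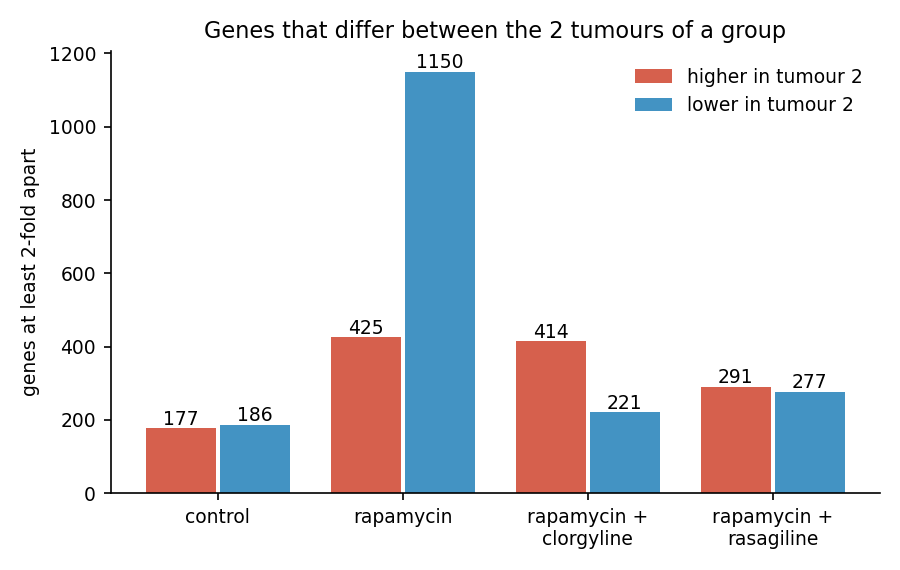
Number of tested genes at least 2-fold apart, on the log2(TPM + 1) scale, between the 2 tumours of each group, split by whether tumour 2 was higher or lower. The rapamycin pair stands out through the 1150 genes that were lower in its tumour 2.

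The gap between the rapamycin tumours was present at every level of expression. Below a mean of 5 TPM 18.3% of genes were at least 2-fold apart between the rapamycin tumours, against 6.80% between the controls. The shares were 13.7% against 2.96% from 5 to 20 TPM, 8.83% against 0.928% from 20 to 100 TPM, and 7.66% against 1.08% at 100 TPM and over.

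Each rapamycin tumour was therefore set against the controls on its own, as a description. Rapamycin tumour 1 was at least 2-fold above both controls in 394 genes and at least 2-fold below both in 253, together 5.04% of those tested. Rapamycin tumour 2 was at least 2-fold above both in 599 genes and below both in 866, together 11.4%. For tumour 1 the balance turned with the scaling, to 281 above and 367 below after a shift to a common median and to 283 above and 361 below after quantile normalization. For tumour 2 more genes were below than above under all 3 scalings, with 583 above and 888 below after the median shift and 598 above and 762 below after quantile normalization. Rapamycin tumour 1 differed from the control mean by 0.592 (root mean square over genes, log2) and tumour 2 by 0.819.

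In the genes that separated the rapamycin tumours, the control mean was nearer to tumour 1 somewhat more often than over all genes tested. Of the 1150 genes at least 2-fold lower in tumour 2, the control mean was nearer to tumour 1 in 804 (69.9%), and the mean of the 4 combination tumours in 1005 (87.4%). The median log2 difference from control in these genes was 0.376 for tumour 1, -1.07 for tumour 2 and 0.0683 for the combinations. Of the 425 genes at least 2-fold higher in tumour 2, the control mean was nearer to tumour 1 in 323 (76.0%), and the combination mean in 321 (75.5%). Over all genes tested the control mean was nearer to tumour 1 in 61.6%. Such a share over all genes was not computed for the combination mean, so its shares have no background to be read against.

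The plot of both rapamycin tumours against the control mean shows where the called genes lie. All 89 called genes had both rapamycin tumours outside the range of the controls, on the same side. Such separation was common among genes not called, since both rapamycin tumours lay above both controls in 4038 genes (31.5%) and below both in 2308 (18%). Which side held more genes depended on the scaling, with 3296 above and 2981 below after quantile normalization and 3029 above and 3265 below after the median shift. In the 33 genes that rose, the median log2 difference from control was 1.79 in tumour 1 and 2.09 in tumour 2. In the 56 that fell it was -1.95 in tumour 1 and -2.08 in tumour 2. Tumour 2 was farther from control in 22 of the 33 and in 39 of the 56, against 61.6% of all genes tested. The test favours genes in which the replicates lie close together, and the tumours differed by a median of 0.266 (log2) in called genes and 0.348 in all genes tested.

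**Figure D4:**
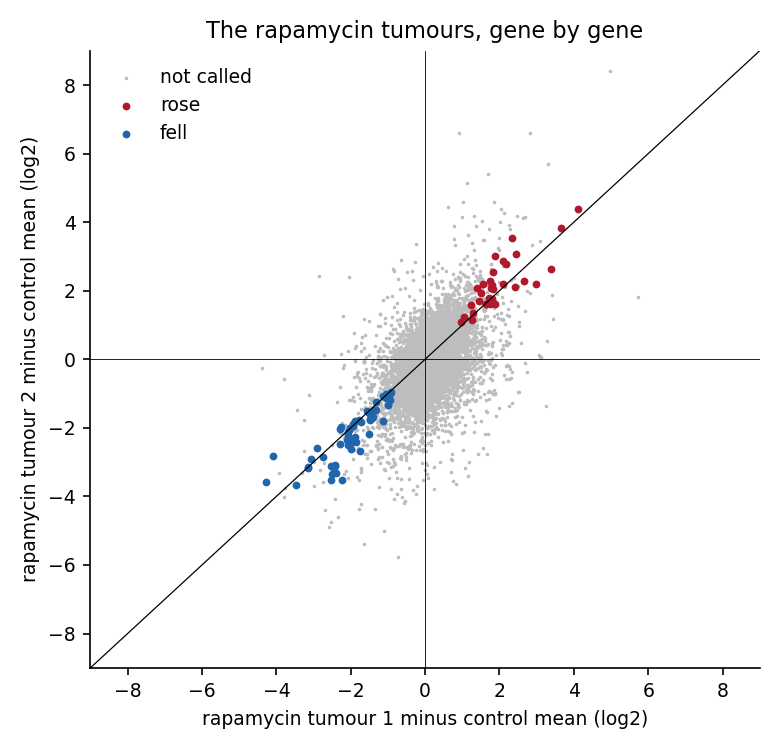
Log2 difference from the control mean in rapamycin tumour 1 (horizontal axis) and rapamycin tumour 2 (vertical axis) for each gene tested; the diagonal marks equal differences. Both axes use the same control mean, which by itself draws points toward the diagonal; the called genes (33 red, 56 blue) lie near it, and the cloud is taller than it is wide.

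To compare the tumours without a shared control, each was also set against a control of its own. With tumour 1 against control 1 and tumour 2 against control 2, the log2 differences correlated across genes at r = 0.423 (Spearman's rho 0.394). With the controls exchanged, r was 0.377 (rho 0.323). Genes are not independent replicates, and these correlations are a description over 12832 genes. In the first pairing, 428 genes were at least 2-fold lower in tumour 1 and 1096 in tumour 2. The 248 genes in both lists made up 57.9% of the tumour 1 list and 22.6% of the tumour 2 list. In the same pairing 670 and 933 genes were at least 2-fold higher, and the 226 in both made up 33.7% and 24.2%. Over both pairings, 54.9% to 57.9% of the genes lower in tumour 1 were also lower in tumour 2. Of those lower in tumour 2, 16.3% to 22.6% were also lower in tumour 1. Both shares count the same shared genes, so the contrast between them follows from the longer tumour 2 list. The overlap that lists of these lengths would show among unrelated genes was not computed.

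Many large differences were not called. A log2 difference of at least 2 between the group means was found in 185 genes, of which 45 were called (14 of 73 higher, 31 of 112 lower). Both rapamycin tumours were at least 2-fold above the higher control in 161 genes, of which 31 were called. They were at least 2-fold below the lower control in 165 genes, of which 49 were called. Among the genes separated in this way, the rapamycin tumours differed by a median of 0.294 (log2) in the called and 0.585 in the uncalled genes above the controls, and by 0.264 and 0.545 in those below. Listed at 0 in both controls and at 1 TPM or more in both rapamycin tumours were 17 genes, and the reverse held for 13. For 57.5% of the genes tested, both ends of the 95% interval were less than 1 log2 unit from 0, so for the others a change beyond that size was compatible with the data.

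How many genes were called depended on which tumour was left out, and the estimate of the spread moved with it. The mean residual variance was 0.147 with all tumours, 0.167 with a control left out and 0.108 with a rapamycin tumour left out. It was 0.155 without a tumour of the clorgyline combination and 0.159 without one of the rasagiline combination. Omitting a combination tumour left every difference between rapamycin and control unchanged. Leaving out rapamycin tumour 1 or tumour 2 leaves the same 6 other tumours to estimate the spread, and the residual variance was the same in all 12832 genes. With tumour 2 as the only rapamycin tumour, 593 genes rose and 799 fell (limma adjusted p below 0.05). With tumour 1 as the only one, 33 rose and 28 fell. These fits assume that a lone rapamycin tumour varies like the other groups, whereas the variance between the 2 rapamycin tumours was the highest of the 4 groups. All 89 genes called with both tumours were also called with tumour 2 alone, and 26 of them with tumour 1 alone. Without control 1 or without control 2 the limma count was 0, with 1613 and 1465 genes at an unadjusted p below 0.05, against 2521 with all tumours. Omitting either tumour of the clorgyline combination gave 18, and omitting tumour 1 or 2 of the rasagiline combination gave 33 or 32.

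**Figure D5:**
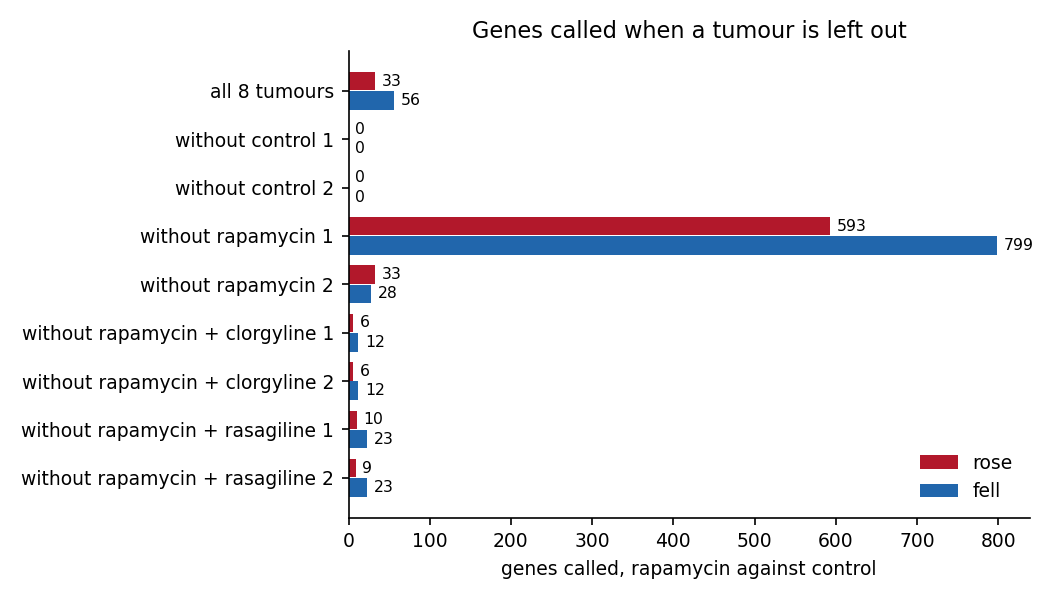
Number of genes that rose (red) and fell (blue) between rapamycin and control at a limma adjusted p below 0.05, with all 8 tumours and with each left out in turn. The count runs from 0 without either control to 593 and 799 without rapamycin tumour 1.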

How the data were processed

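The authors deposited 1 table of TPM values for the 8 libraries, made from TRIzol-extracted RNA with Illumina TruSeq libraries per the labels' protocols. Per the submitters' processing notes, the build was rn6 and the tools included DESeq2, bedtools, SAMtools 0.1.18 and STAR 2.4.0f1, without their roles. For the tool behind the TPM, the annotation release and the handling of mouse reads, the sources used here say nothing. TPM keeps no depth, so no counting interval was computed, and a rise of very abundant genes in a library lowers the TPM of its other genes.

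Groups came from the titles; no 2 libraries were identical. Genes with at least 1 TPM in 2 of the 4 control and rapamycin libraries were tested on log2(TPM + 1). limma 3.58.1 (R 4.3.3) fitted 4 group means to all 8 libraries, with 4 residual degrees of freedom and an intensity trend. It was also run on simulated data. That simulation gave every group the same spread, so it cannot show how the test behaves with the unequal spreads found here. Plots used matplotlib 3.10.9 (Python 3.11.15). Alternatives were other pseudocounts, filters, scalings and variance models, a fit of 4 libraries, array weights and each library left out. The comparison, 28 pathway lists and 15 marker lists were chosen with earlier results of these data known. The lists need symbols and could not be applied. By the rule for that case, the text names the 2 largest changes in each direction by ID, among called genes whose groups do not overlap and average 5 TPM or more on one side.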

Additional observations from a re-analysis of the deposited data

How the results depend on the processing

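The number of genes called between rapamycin and control, 89, was 70 and 79 at pseudocounts of 0.1 and 5 TPM, 102 with a filter of 5 TPM, 88 with the filter taken over all 8 libraries and 66 without a variance trend. It moved to 8 with no filter on low values, 148 after quantile normalization, 144 after the median shift, 4 with only the 4 control and rapamycin libraries fitted and 4 with array weights, and leaving out single libraries in turn gave 0 to 1392. With thresholds of 0.10 and 0.25 on the adjusted p, chosen after seeing the data, it was 527 (267 higher, 260 lower) and 2473 (1541 higher, 932 lower). The excess of falls did not hold there, on the values as deposited. Of the 89, 85 were also called after quantile normalization, 84 after the median shift, 3 with the 4 libraries alone and 4 with array weights. The share of calls that rose was 37.1% as deposited, 29.1% after quantile normalization, 25.7% after the median shift, and 42.9% and 26.6% at pseudocounts of 0.1 and 5 TPM. It was 41.2% with the 5 TPM filter, 54.1% without rapamycin tumour 2, 75% of the 4 calls with array weights, and 50.7% and 62.3% at thresholds of 0.10 and 0.25. Both scalings called more genes in each direction, 43 higher and 105 lower for quantile normalization and 37 and 107 for the median shift. The cause of these moves was not tested. The fit of 4 had both fewer libraries and a higher mean residual variance, 0.176 against 0.147. The 4 genes named by ID kept their direction in all 18 alternatives; the calls of ENSRNOG00000052713 and ENSRNOG00000000875 were lost in 2 of them and those of ENSRNOG00000049096 and ENSRNOG00000048953 in 9. The log2 difference ranged from 2.21 to 7.504 for ENSRNOG00000052713, 2.30 to 4.64 for ENSRNOG00000000875, -4.87 to -2.48 for ENSRNOG00000049096 and -4.70 to -2.04 for ENSRNOG00000048953, with the extremes set by the pseudocount. The medians of gene lists were not computed, since no symbols could be assigned.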
